A study of Homo sapiens with 22 samples.

Results

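HFFc6-only open regions at gene ends are ATAC regions of the fibroblast line HFFc6, chosen by their measured positions: they overlap no ATAC region of the stem cell line H1 and lie within 1 kb of either end of a protein-coding gene on chromosomes 1 to 22 or X. There were 3342 of them among 155746 HFFc6 ATAC regions (2.15%). They made up 3.29% of the 101679 regions found in HFFc6 and not in H1, which in turn were 65.3% of the HFFc6 list, and 20.2% of the 16549 HFFc6 regions at gene ends. The other 13207 regions at gene ends overlapped an H1 region and are called shared. A gene was called open in HFFc6 alone when the 1 kb windows around its ends held an HFFc6 region and no H1 region. That was so for 1108 of 19970 RefSeq protein-coding genes (5.55%), while 14081 (70.5%) had a region of both lines, 1655 (8.29%) of H1 alone and 3126 (15.7%) of neither. The comparison of the 2 lists defines these groups, so their sizes and the absence of H1 regions are a description and carry no test.

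The series mapped open chromatin and chromatin proteins in human cell lines alongside assays of chromosome folding. HFFc6 is a subclone of telomerase-immortalised foreskin fibroblasts, and 8 of its libraries were assayed by ATAC-seq, in which the transposase Tn5 inserts adapters into accessible DNA. The titles of these 8 combine an R and a T label, neither of them explained, so they cannot be taken as independent replicates. H1, a human embryonic stem cell line, had 2 ATAC libraries. CTCF, the zinc finger protein that marks many chromatin boundaries, was mapped by Cut&Tag in 2 libraries labelled HFFc6. Cut&Tag brings Tn5 to the protein through an antibody. The titles of these 2 libraries name HFF1 instead, and the HFFc6 label was followed here. All HFFc6 CTCF values below rest on that choice, which was not tested. Each group's libraries were combined in a single deposited peak list, so no value per library exists and no difference could be tested against replicates. A further CTCF list is named for human embryonic stem cells. Its assay and libraries are unknown, since it matches no sample label, and the text refers to it as the hESC-named CTCF list. HFFc6 is 1 clone of 1 cell line, and the H1 list had more and narrower regions (189982, median width 301 bp) than the HFFc6 list (155746, median 707 bp). A region absent from the H1 list is a region that was not called there. The read depth behind the lists is unknown, and intervals given below are Wilson 95% intervals that cover counting error only and treat neighbouring regions as independent.

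Of the fibroblast markers, 13 of 15 were open in both lines, POSTN in HFFc6 alone and THY1 in neither. Of 8 stem cell markers, 5 had a region in H1 alone, 2 in both lines and 0 in HFFc6 alone. POU5F1 had a region at its ends in neither line. Markers of other cell types were mostly not in the HFFc6-alone class: 0 of 8 keratinocyte and 0 of 9 skeletal muscle genes, 1 of 7 melanocyte genes (MLANA, at its far end) and 1 of 9 endothelial genes (EMCN). Of 9 blood genes 3 were in it, CD14, PTPRC and GATA1. The PTPRC and GATA1 regions lay at the far end of the gene, and the CD14 region lay within 1 kb of both of its ends.

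The start of a gene carries its promoter, where transcription factors and RNA polymerase assemble, and the far end is where transcription terminates. Promoters of widely used genes tend to be rich in CpG dinucleotides and open in most cell types, whereas promoters of tissue-restricted genes more often lack CpG and may carry a TATA box. AP-1, the dimer of FOS and JUN proteins, is a signal-responsive factor that is abundant in fibroblasts and known to keep many of their enhancers accessible.

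The DNA ahead of selected starts is given as examples, grouped by the letters they hold. The 250 bases before the start were taken from RefSeq (GRCh38.p14, hg38 coordinates, gene strand, 5′ to 3′). Capitals mark the AP-1 letters TGAGTCA and the TATA letters TATAAA, read on both strands, so that TGACTCA and TTTATA are the same letters on the opposite strand. A match is a description of the letters and not evidence of binding. Over all 15811 start windows of 300 bases (250 before and 50 after the start), 3.67% held the AP-1 letters and 9.64% the TATA letters. In the 510 windows under an HFFc6-only region, described below, the shares were 13.9% and 15.5%. The examples hold these letters more often and are not representative. The first set has AP-1 letters. CXCL8, the neutrophil-attracting chemokine interleukin 8, lies at chr4:73740319-73740568 (plus strand). CPA4, a carboxypeptidase, lies at chr7:130292911-130293160 (plus), and ECM1, a secreted matrix protein, at chr1:150507859-150508108 (plus). POSTN, the matrix protein periostin, lies at chr13:37598769-37599018 (minus). CPA4 and ECM1 were chosen after their values were seen, as were all AP-1 genes below that belong to no listed gene family.
CXCL8: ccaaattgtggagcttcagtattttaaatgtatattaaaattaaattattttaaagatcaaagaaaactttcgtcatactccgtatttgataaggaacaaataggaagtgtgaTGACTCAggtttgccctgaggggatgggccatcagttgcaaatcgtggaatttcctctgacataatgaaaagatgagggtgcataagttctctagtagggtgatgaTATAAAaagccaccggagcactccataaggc
CPA4: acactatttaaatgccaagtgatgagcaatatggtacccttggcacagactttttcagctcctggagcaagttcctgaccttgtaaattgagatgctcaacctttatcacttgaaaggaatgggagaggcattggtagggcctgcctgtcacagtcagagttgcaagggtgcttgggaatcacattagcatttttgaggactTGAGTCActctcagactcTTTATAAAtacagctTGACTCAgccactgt
ECM1: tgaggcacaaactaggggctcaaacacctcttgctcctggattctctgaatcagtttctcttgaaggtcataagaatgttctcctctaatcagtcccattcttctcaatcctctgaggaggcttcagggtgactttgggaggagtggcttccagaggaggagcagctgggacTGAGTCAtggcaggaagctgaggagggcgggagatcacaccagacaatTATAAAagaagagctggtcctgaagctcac
POSTN: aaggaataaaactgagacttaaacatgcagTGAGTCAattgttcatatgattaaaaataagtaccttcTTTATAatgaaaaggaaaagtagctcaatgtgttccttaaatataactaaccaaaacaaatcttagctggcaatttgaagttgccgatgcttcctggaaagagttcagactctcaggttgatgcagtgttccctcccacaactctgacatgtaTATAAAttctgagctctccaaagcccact

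In CXCL8 the AP-1 letters began 137 bp and the TATA letters 31 bp before the start. In CPA4 there were 2 AP-1 matches, 48 and 15 bp before the start, on either side of overlapping TATA matches at 30 and 28 bp. In ECM1 the AP-1 letters lay 78 bp and the TATA letters 30 bp before the start. In POSTN they lay 220 bp (AP-1) and 182 and 29 bp (TATA) before it. All 4 therefore had a TATA match 28 to 31 bp ahead of the start.

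The second set has a TATA match without the AP-1 letters. CCL7, a monocyte-attracting chemokine, lies at chr17:34269971-34270220 (plus). KRTAP2-3, a keratin-associated protein of hair, lies at chr17:41060115-41060364 (minus) and belongs to a family of near-identical copies whose reads may not be told apart. The TATA letters began 30 and 28 bp before these starts.
CCL7: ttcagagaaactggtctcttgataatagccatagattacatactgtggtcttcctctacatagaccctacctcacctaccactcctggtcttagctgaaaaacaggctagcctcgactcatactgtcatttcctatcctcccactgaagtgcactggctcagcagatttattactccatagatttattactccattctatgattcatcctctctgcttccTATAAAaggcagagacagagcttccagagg
KRTAP2-3: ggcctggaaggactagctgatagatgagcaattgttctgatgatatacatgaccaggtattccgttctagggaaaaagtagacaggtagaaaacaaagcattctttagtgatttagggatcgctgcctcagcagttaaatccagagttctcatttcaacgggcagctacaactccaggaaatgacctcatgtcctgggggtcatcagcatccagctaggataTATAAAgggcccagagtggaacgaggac

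The last set has neither motif. COL6A3, the alpha 3 chain of type VI collagen, lies at chr2:237414165-237414414 (minus). The zinc finger genes ZNF736 and ZNF528 lie at chr7:64313711-64313960 and chr19:52397599-52397848 (both plus). Their CpG content differed: the ratio of observed to expected CpG over the 300-base window was 0.183 for COL6A3, 0.422 for ZNF736 and 1.13 for ZNF528.
COL6A3: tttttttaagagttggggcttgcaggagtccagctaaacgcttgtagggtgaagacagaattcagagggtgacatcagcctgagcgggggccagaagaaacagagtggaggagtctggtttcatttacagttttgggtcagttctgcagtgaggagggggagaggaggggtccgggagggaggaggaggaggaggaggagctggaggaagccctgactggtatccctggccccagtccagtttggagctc
ZNF736: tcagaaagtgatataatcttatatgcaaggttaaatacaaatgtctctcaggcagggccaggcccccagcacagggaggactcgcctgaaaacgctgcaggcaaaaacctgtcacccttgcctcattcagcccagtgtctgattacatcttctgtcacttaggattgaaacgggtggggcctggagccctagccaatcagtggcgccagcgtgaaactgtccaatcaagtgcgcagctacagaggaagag
ZNF528: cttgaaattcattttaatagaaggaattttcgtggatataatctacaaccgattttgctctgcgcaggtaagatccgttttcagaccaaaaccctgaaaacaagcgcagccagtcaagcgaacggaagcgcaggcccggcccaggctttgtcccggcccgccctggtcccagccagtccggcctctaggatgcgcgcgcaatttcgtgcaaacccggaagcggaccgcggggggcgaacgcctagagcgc

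The AP-1 letters were found in 71 of the 510 start windows that an HFFc6-only region covered at least in part and no H1 region did (13.9%, 11.2 to 17.2). The share was 2.54% (2.25 to 2.87) of 9870 windows under regions of both lists, 3.66% (2.76 to 4.85) of 1257 windows under H1 regions alone and 4.91% (4.25 to 5.65) of 3668 windows under none. A further 506 windows lay under an HFFc6 region that reached an H1 region outside the window, and 32 of them held the letters (6.32%, 4.51 to 8.79). The interval of the HFFc6-only windows lay above those of the other 4 classes. The windows were sorted by the ATAC lists and not by sequence, and this grouping was added after seeing the data. The planned grouping, by gene class, gave a smaller contrast. The share was 7.95% (6.31 to 9.97) for the 843 genes open in HFFc6 alone and 2.98% (2.68 to 3.30) for genes open in both. It was 4.38% (3.37 to 5.68) for genes open in H1 alone and 5.19% (4.35 to 6.18) for neither. Of the 71 windows, 47 belonged to genes open in HFFc6 alone, 21 to genes open in both and 3 to genes of neither class, whose annotated start lies inside the gene.

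CpG content differed between the same windows. The median CpG ratio was 0.293 under HFFc6-only regions, 0.852 under regions of both lists, 0.6 under H1 regions alone and 0.241 under none. Among windows with a ratio below the median of all windows (0.763), 70 of 400 HFFc6-only windows held the AP-1 letters (17.5%, 14.1 to 21.5), against 4.10% under both lists, 4.77% under H1 alone and 5.21% under none. Among windows at or above that ratio the count was 1 of 110 (0.909%, 0.161 to 4.97), against 1.86% under both lists. Of the 71 HFFc6-only windows with the letters 70 were thus CpG-poor, and among CpG-poor windows the HFFc6-only class again had the highest share of these 4 classes. Split at their median fold enrichment of 5.23, the weaker windows held the letters in 28 of 255 cases (11%, 7.71 to 15.4) and the stronger in 43 of 255 (16.9%, 12.8 to 21.9), with overlapping intervals.

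**Figure D1:**
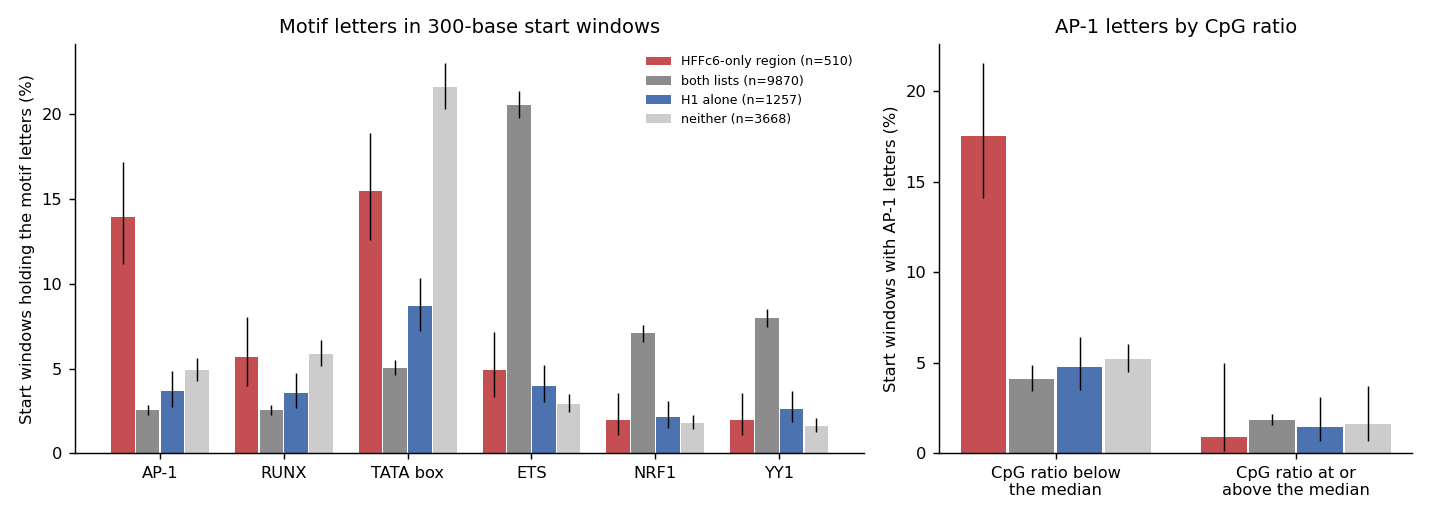
Left, the share of 300-base start windows (%) holding the letters of 6 motifs, by the ATAC regions over the window. Right, the share with AP-1 letters (%) below and at or above the median CpG ratio; bars are shares and lines Wilson 95% intervals. The red AP-1 bar stands at 13.9%, against 2.54% to 4.91% for the other classes drawn; windows under an HFFc6 region that reached H1 outside the window (6.32%) are not drawn.

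The strongest windows with AP-1 letters, by the fold enrichment of the HFFc6-only region over them, were those of TSPAN10 (17.6), LYST (16.6), ECM1 (16.2), CPA4 (16.0), C4orf51 (15.5), IZUMO1R (14.8), CXCL8 (14.7) and C3AR1 (14.6). TSPAN10 was open in both lines at its ends and the other 7 in HFFc6 alone. LYST encodes a regulator of lysosomal trafficking, and C3AR1 the receptor for the complement fragment C3a. In each the AP-1 letters lay within 250 bp before the start, for example 18 bp before it in IZUMO1R, a gene of the folate receptor family.

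Other letters followed promoter type. The TATA letters were in 15.5% (12.6 to 18.9) of HFFc6-only windows, against 5.05% under both lists, 8.67% under H1 alone and 21.6% under none. The GC box bound by SP1 factors (GGGCGG) was in 32.5% of HFFc6-only windows and 73.9% of those under both lists. The letters of ETS factors (CCGGAAG), of NRF1 (GCATGCG) and of YY1 (GATGGCG), factors of housekeeping promoters, were in 4.90%, 1.96% and 1.96% of HFFc6-only windows, against 20.6%, 7.08% and 7.97% under both lists. The RUNX letters (TGTGGTT) were in 5.69% (3.99 to 8.05) of HFFc6-only windows and 5.89% of windows under none. Over all windows the shares were 58.5% for the GC box, 14.2% for ETS, 5.14% for NRF1, 5.71% for YY1 and 3.55% for RUNX. In the GC box, ETS, NRF1, YY1, TATA and RUNX letters the HFFc6-only windows thus lay nearer to the windows under no region than to those under both lists, while AP-1 was above both.

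The 110 HFFc6-only windows with a CpG ratio at or above the median of all windows were led, by fold enrichment, by POLR2J2 (19), ZNF528 (18.6), BHMT2 and DMGDH (13.7 each), and H2AC19 (12.4). BHMT2 and DMGDH, enzymes of methyl group metabolism, are neighbours whose starts lay under regions of the same value. POLR2J2, a subunit of RNA polymerase II, and H2AC19, a histone gene, have near-identical copies, and their values are uncertain because no source used here states how reads that map to several places were handled.

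Most HFFc6-only regions at gene ends were not at the start. In counts of ends and in summit distances the start is the outermost 5′ end of the gene, which was the tabulated start in 13256 genes. Strand was known for 15811 genes, and 2681 regions lay at an end of such a gene: 1036 at a start and 1734 at a far end, with 89 counted in both. Of 2916 pairs of region and gene end, 36.8% (35.0 to 38.5) were at starts, against 84.7% (84.0 to 85.3) of 12967 pairs for shared regions and 58.6% (57.0 to 60.1) of 3871 pairs for H1-only regions. The share differed between the gene classes, in part by construction. Windows of genes open in both also hold an H1 region, mostly shared and at the start, and those of genes open in HFFc6 alone hold none. At genes open in HFFc6 alone 582 of 893 pairs (65.2%, 62.0 to 68.2) were at the start, and at genes open in both lines 490 of 2023 (24.2%, 22.4 to 26.1). Of the 12847 pairs of shared regions at genes open in both lines, 10898 were at the start.

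The summits of start regions gathered just ahead of the start. Of 1072 HFFc6-only pairs at starts, 344 (32.1%) had the summit within 200 bp of the start, against 65.6% of shared pairs. The median distance was 576 bp and 110 bp. At the far end no such peak was seen: 14.4% of HFFc6-only and 10.1% of shared summits lay within 200 bp, with medians of 691 and 787 bp. Of the 1600 regions at far ends only, 24 (1.5%, 1.01 to 2.22) lay within 1 kb of a start in the RefSeq promoter table, against 7.03% (5.63 to 8.74) of shared far-end regions and 2.03% (1.95 to 2.12) of HFFc6-only regions elsewhere. Regions at a start that is the outermost end of its gene are not in either far-end group, so these are other tabulated starts.

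**Figure D2:**
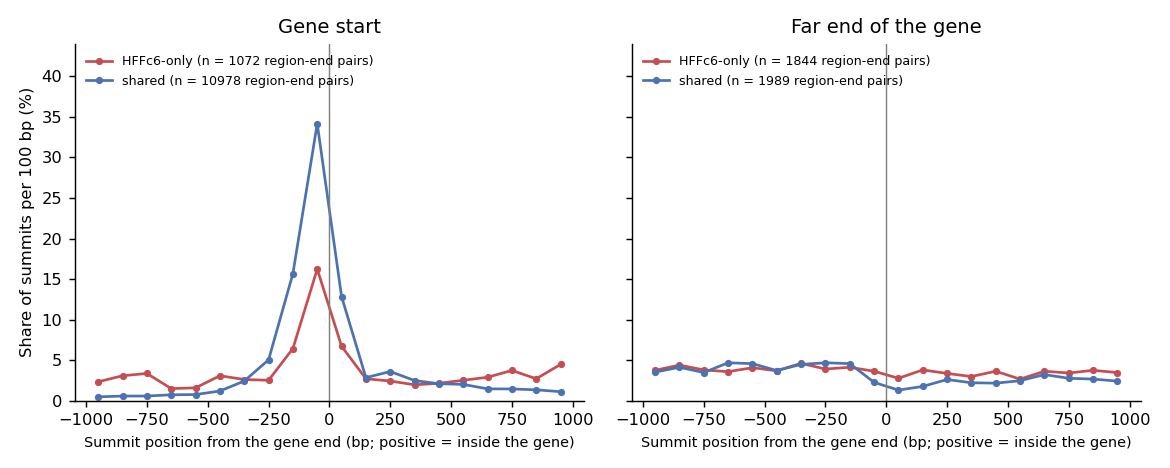
Summit position relative to the gene start (left) and far end (right) in 100 bp steps, as a share (%) of all pairs of region and gene end; pairs with a summit beyond 1 kb are counted in the total and not drawn. Red is HFFc6-only and blue shared. In the 100 bp before the start lay 16.2% of HFFc6-only and 34.2% of shared summits.

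HFFc6-only regions at gene ends were narrower and weaker than shared ones. The deposited fold enrichment, the peak caller's ratio of signal at the summit over its background, had a median of 4.62 (quartiles 2.91 and 8.31) and ran from 1.32 to 21.6. Its median was 11.2 in shared regions at gene ends and 5.26 in the 98337 HFFc6-only regions elsewhere. The median width was 685.5 bp, against 1333 bp in shared regions and 627 bp elsewhere. A −log10 q of at least 10 was reached by 78.5%. The difference in width is in part by construction, since a wider region has more room to overlap an H1 region. At far ends alone the contrast with shared regions was smaller. Median fold enrichment there was 4.92 against 6.72 in shared regions, and median width 675 against 839 bp. These peak values are the authors' own.

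The start regions of genes open in both lines stood apart among them. There 425 regions had a median fold enrichment of 3.49 and lay a median of 684 bp from the nearest H1 region, and 32.7% lay within 500 bp of one. The 507 start regions of genes open in HFFc6 alone had a median of 4.97 and a median distance of 4677 bp, and 1.38% lay within 500 bp. For genes open in both, the distance is short in part by construction, since their windows also hold an H1 region. Far-end regions had medians of 4.78 (256 regions, genes open in HFFc6 alone) and 5.0 (1331 regions, genes open in both).

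**Figure D3:**
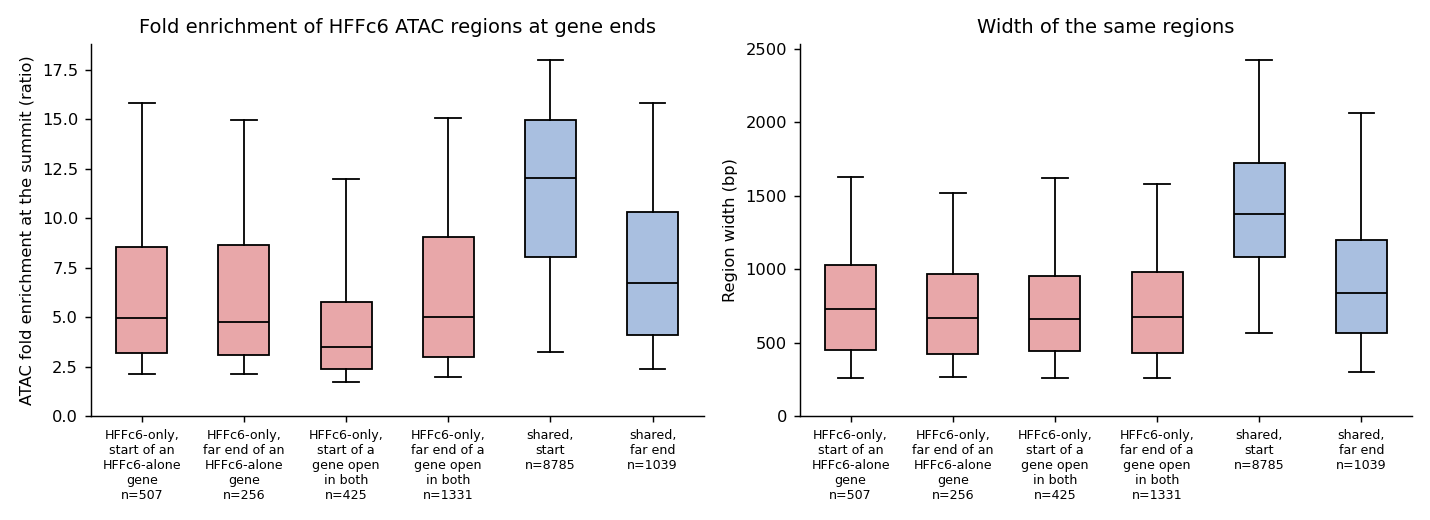
ATAC fold enrichment (ratio, left) and width (bp, right) of HFFc6 regions at gene ends of known strand. Boxes span the quartiles with the median as a line, and whiskers the 5th to 95th percentiles. Red boxes are HFFc6-only and blue shared regions. Shared start regions have a median of 12, above the 4 HFFc6-only groups at 3.49 to 5.0.

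The widest HFFc6-only regions at gene ends lay, with a single exception, at the far ends of genes open in both lines. These were VASN (3291 bp, fold enrichment 4.71), SGK1 (3285 bp, 2.39), NFKBIZ (3179 bp, 3.43) and TIMP3 (3146 bp, 2.95). VASN encodes vasorin, a surface protein that binds TGF-beta, SGK1 a serum- and glucocorticoid-induced kinase, NFKBIZ an atypical inhibitor of NF-kappaB and TIMP3 an inhibitor of matrix metalloproteinases. The exception was COL6A3, whose start lay under a region of 3195 bp. All 5 overlapped an HFFc6 CTCF region, against 39.7% of all HFFc6-only regions at gene ends. The latter had a median width of 685.5 bp, and a wider region has more room to overlap a CTCF region.

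At the limits of the rule the values ran on without a step. The 246 regions that reached the last 100 bp inside the 1 kb limit had a median fold enrichment of 3.99, and the 248 just outside it 4.04. The 53 HFFc6-only regions within 100 bp of an H1 region had a median of 3.55, and the 104 shared regions overlapping one by under 100 bp had 2.83. Of all 3342 regions, 1066 contained the gene end itself.

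HFFc6 CTCF regions overlapped 1328 of the 3342 regions (39.7%, 38.1 to 41.4). This compared with 89.6% (89.1 to 90.1) of shared regions at gene ends and 29.7% (29.4 to 30.0) of HFFc6-only regions elsewhere. The hESC-named CTCF list overlapped 300 (8.98%, 8.05 to 9.99), against 85.8% and 5.47% in those groups. Overlap with HFFc6 CTCF followed ATAC strength. With all HFFc6 ATAC regions ranked in 5 equal groups by fold enrichment, the share was 18.6, 27.6, 45.5, 57.4 and 80.8% from the weakest to the strongest. Shared regions at gene ends gave 39.3, 63.7, 84.4, 95.5 and 99.0%, and HFFc6-only regions elsewhere 7.05, 14.3, 27.2, 46.4 and 69.8%. In every strength group the HFFc6-only regions at gene ends therefore lay between the other 2 sets. The sets were not matched for width, and their median widths had the same order. These were 1333 bp in shared regions at gene ends, 685.5 bp in HFFc6-only regions there and 627 bp elsewhere. The part of width in the overlaps was not tested. The hESC-named share did not follow strength in the same way, at 7.47, 11, 12, 7.16 and 6.79%. Cut&Tag also cuts with Tn5, and the part of open chromatin in these overlaps was not tested.

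**Figure D4:**
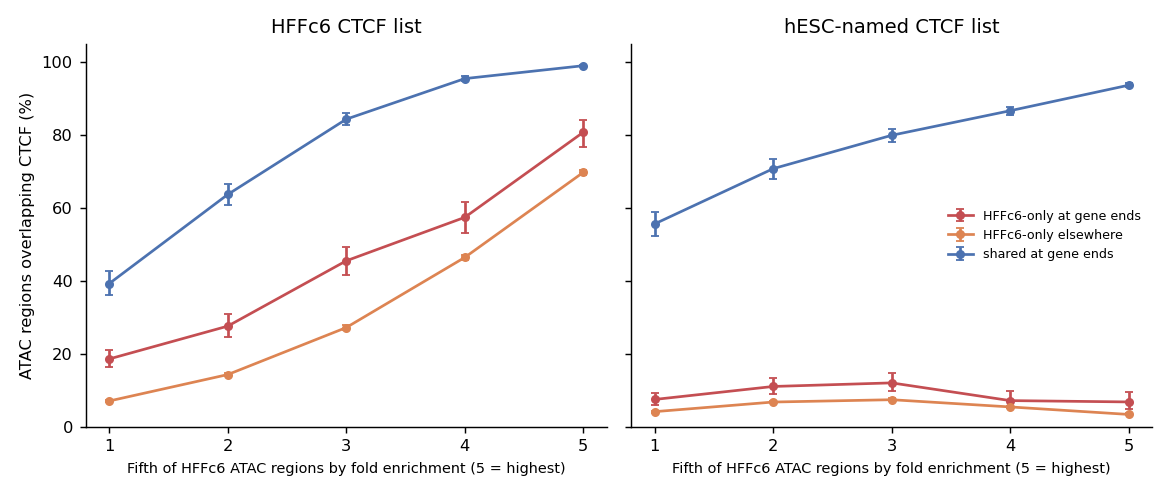
Share of ATAC regions (%) that overlap an HFFc6 CTCF region (left) or a region of the hESC-named CTCF list (right), in 5 groups of all HFFc6 ATAC regions by fold enrichment, 5 being the strongest. Points are shares and bars Wilson 95% intervals. The red line, HFFc6-only regions at gene ends, goes from 18.6 to 80.8% on the left and stays between 6.79 and 12% on the right.

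By the strength of the CTCF region, the leading genes open in HFFc6 alone were GOLGA8Q (CTCF fold enrichment 20.6), POLR2J2 (15.6), LOC124903164 (15.3), SRI (15.1) and VIT (14.8). SRI encodes the calcium-binding protein sorcin, and VIT the matrix protein vitrin. GOLGA8Q and POLR2J2 have near-identical copies and are uncertain.

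Genes open in HFFc6 alone were shorter than genes open in both, with a median length of 17.5 kb against 29.4 kb, and longer than genes open in neither (9.80 kb). An HFFc6-only region lay at an end of 985 of the 1108 genes. In the rest the HFFc6 region in the window also reached an H1 region outside it. There was 1 such region at 850 genes, 2 at 125 and 3 at 10, and 138 genes had one at each end, in 34 cases the same region. Of the 756 genes with an HFFc6-only region and a known strand, 458 had it at the start alone, 197 at the far end alone and 101 at both. Counting starts only, 801 of 15811 (5.07%) were open in HFFc6 alone.

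The class does not mean that the gene was closed in H1. An H1 region lay inside the gene body of 727 of the 1108 genes, and 381 had none. In 109 of the 843 genes of known strand an H1 region covered the RefSeq start window. All 109 were among the 216 whose tabulated start is not the outermost end of the gene. PLAU, FAS, AMOTL1, ZNF880 and ZBTB9, which are described below, were of this kind. The share of genes open in HFFc6 alone ranged from 2.59% on chromosome 18 to 7.49% on chromosome 10.

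The gene with the strongest region was MROH2B on chromosome 5 (40998020 to 41071342), at a fold enrichment of 21.6, with the summit 832 bp ahead of the start. Next came ZNF717 (20.5), ACMSD (20.4), an enzyme of tryptophan breakdown, and ALPK1 (20.3), a kinase that senses bacterial sugars. TAS2R14, a bitter taste receptor, stood at 20.2, GNE, the key enzyme of sialic acid synthesis, at 19.5, and BTN3A3, a butyrophilin of the immunoglobulin family, at 19.3. The heme carrier HPX stood at 17.8. AMOTL1, a junction protein of the Hippo pathway, had 18.7 at its far end. Among the 25 strongest genes the value ran from 17.7 to 21.6. The region was at the start in 16, at the far end in 4 and at an end of unknown strand in 5. It was HFFc6-only in 21 and reached an H1 region beyond the windows in 4, GOLGA6B, SLC28A2, KLHL12 and ZBTB9. HFFc6 CTCF overlapped 21 of the 25 and the hESC-named CTCF list 6. In the strongest fold enrichment group described above, these lists overlapped 80.8% and 6.79% of HFFc6-only regions at gene ends. For shared regions at gene ends the shares were 99.0% and 93.7%.

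Zinc finger genes of the ZNF family, most of them DNA-binding repressors, made up 6 of these 25. ZNF717 on chromosome 3 (75694701 to 75785549) had its summit 12 bp ahead of the start, and the nearest H1 region was 30342 bp away. ZNF726 had a fold enrichment of 18.7 and ZNF562 of 18.4. ZNF736, on chromosome 7 (64313961 to 64356634), had 18.0 with its summit 9 bp ahead of the start, and the nearest H1 region was 247731 bp away. ZNF528 and ZNF880 shared a single region of 18.6, which lay at the start of the former and at the far end of the latter. Over the whole family 21 of 509 genes were open in HFFc6 alone (4.13%, against 5.55% of all genes), 22 in H1 alone (background 8.29%) and 422 in both. The share of the family was thus below that of all genes. Reads from similar family members, above all in ZNF717, may not be told apart.

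Matrix genes that mark fibroblasts were mostly open in both lines. Of 26 fibroblast matrix and surface genes 23 were open in both, 0 in H1 alone, and 2 in HFFc6 alone (7.69%, background 5.55%). COL6A3, on chromosome 2 (237324018 to 237414164), had a region of 7.07 at its start, with the summit 102 bp ahead of it, and another of 9.52 at its far end. Both overlapped HFFc6 CTCF, and the nearest H1 regions were 967 and 1537 bp away. POSTN, on chromosome 13 (37562585 to 37598768), had only weak regions ahead of its start, at 2.38 and 2.12, neither with a −log10 q above 10. Of 44 collagen genes 3 were open in HFFc6 alone (6.82%), COL6A3, COL10A1 and COL20A1, and 7 in H1 alone.

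Of 23 matrix metalloproteinases, enzymes that cut matrix proteins, 3 were open in HFFc6 alone (13.0%, background 5.55%) and 3 in H1 alone (13.0%, background 8.29%). MMP1, the interstitial collagenase, had an HFFc6-only region of 8.61 with its summit 103 bp outside the gene end, an end whose strand was not tabulated. MMP9 (2.03) and MMP23B (3.74) had weaker regions. Of 18 fibrinolysis genes 2 were open in HFFc6 alone (11.1%, background 5.55%) and 2 in H1 alone. PLAU, urokinase, had a region of 6.06, 474 bp inside its outer start. Its receptor PLAUR had 1 HFFc6-only region of 2.65 at the start beside a region of 12 that reached an H1 region beyond the window. None of 25 contractile genes was open in HFFc6 alone, 20 were open in both and 4 in H1 alone.

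Cytokine and chemokine genes had some of the highest shares. Of 45 chemokines 9 were open in HFFc6 alone (20%), of 39 interleukins 8 (20.5%), of 34 interleukin receptors 6 (17.6%) and of 42 TNF ligands and receptors 6 (14.3%), each to be read against 5.55%. H1-alone genes numbered 5, 7, 4 and 6 in these lists, against a background of 8.29%. Among the genes counted, CCL1, CCL17, TNFSF8 and TNFRSF9 had no HFFc6-only region. They were in the class through regions that reached an H1 region outside their windows. The lists were chosen with earlier results of these data known, and neighbouring genes of a cluster are not independent.

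CXCL8, on chromosome 4 (73740569 to 73743716), had a region of 877 bp at a fold enrichment of 14.7, with its summit 74 bp inside the gene and the nearest H1 region 10034 bp away. It did not overlap CTCF. CCL7 (7.22), CCL11 (4.50) and CCL8 (2.41), monocyte and eosinophil attractants, are neighbours on chromosome 17 from 34270221 to 34321402, and each had its own HFFc6-only region. IL1R1, the receptor for interleukin 1, had a region of 9.45 with its summit 40 bp ahead of the outer start. IL7R had 6.33, with its summit 1111 bp inside the gene. IL24 had 2 regions around its start, 8.59 and 7.37. IL10 had a region of 17.5 beyond its far end, 1073 bp from it at the summit. FAS, a death receptor, had 9.30 inside the gene, 1239 bp from the outer start. Lymphotoxin alpha (LTA) and TNF, which lie next to each other, had 9.70 and 4.24. The summits lay 55 bp ahead of the outer start of LTA and 27 bp ahead of the start of TNF. At CXCL8, CCL7 and TNF the summit was thus at the start. At IL1R1 and LTA it was at the outer start, which is not the tabulated start of these genes. At IL7R, IL24, IL10 and FAS it lay over 1 kb away from the named end.

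Interferon-induced genes had 7 of 30 in HFFc6 alone (23.3%, against 5.55% of all genes) and 2 in H1 alone (6.67%, against 8.29%). The guanylate-binding protein genes GBP2 and GBP1 had regions of 14.5 and 11.9, and GBP5 was also in the class. IFI44L and its neighbour IFI44 had 12.5 and 11.9. IFIT2, an RNA-binding antiviral protein gene, had 11.4, and MX2, an antiviral GTPase gene, 9.30. In GBP1, on chromosome 1 (89052319 to 89065208), the summit was 149 bp ahead of the start, and in IFI44 21 bp. H1 regions lay 862 bp from the MX2 region and 1343 bp from that of GBP1.

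S100 genes, which encode small calcium-binding proteins, had 5 of 20 in HFFc6 alone (25%, against 5.55% of all genes) and 0 in H1 alone (against 8.29%). S100A12, which neutrophils are known to secrete, had a region of 17.7, 18014 bp from any H1 region. S100A6, calcyclin, on chromosome 1 (153534599 to 153535991), had a single HFFc6-only region of 7.79 and −log10 q 721, which lay in the windows of both of its ends and in that of its neighbour S100A5. The 5 genes thus include 2 counted through the same region, and S100P and S100A14 were the others. S100A14 had no HFFc6-only region and was counted through a region that reached an H1 region outside its windows.

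HOX genes, which set position along the body axis, had 6 of 39 in HFFc6 alone (15.4%, against 5.55% of all genes) and 6 in H1 alone (15.4%, against 8.29%). HOXA7 had regions of 6.14 at its start, with the summit 44 bp inside the gene, and 3.31 at its far end. The start region of HOXA11 was 2853 bp wide at 4.97. HOXC9 had 6.5, HOXB13 had 6.84 and 2.41, and HOXA6 and HOXD12 were the others. HOXD12 had no HFFc6-only region and was counted through a region that reached an H1 region outside its windows. Of 17 T-box genes TBX2, a repressor, was the only gene in the class, with 3 HFFc6-only regions of 6.24, 1.91 and 1.88, while 5 were open in H1 alone (29.4%, against 8.29%).

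Apart from the cell type markers given above, the remaining lists ran from 0% to 15.8%, against 5.55% of all genes. Above it were, among others, Wnt ligands (3 of 19, 15.8%: WNT11, WNT1 and WNT16), keratins (6 of 55, 10.9%) and SOX genes (2 of 19, 10.5%, with 5 in H1 alone). Of 384 solute carriers 21 were open in HFFc6 alone (5.47%), of 392 olfactory receptors 27 (6.89%) and of 94 keratin-associated protein genes 10 (10.6%, with 20 in H1 alone). In the olfactory receptor and hair gene families most genes had no region in either line, 317 and 59. Of 33 TGF-beta family ligands 4 were in the class (12.1%), INHBB, GDF11, GDF7 and LEFTY2, and 7 in H1 alone. LEFTY2, an inhibitor of nodal signalling, was also the single gene of the pluripotency list, of which 11 of 25 were open in H1 alone. Its region was weak (2.51). None of 22 FGF ligands, 16 epithelial junction genes, 57 cancer-testis antigens or 15 housekeeping genes was open in HFFc6 alone. The housekeeping genes were all open in both lines.

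**Figure D5:**
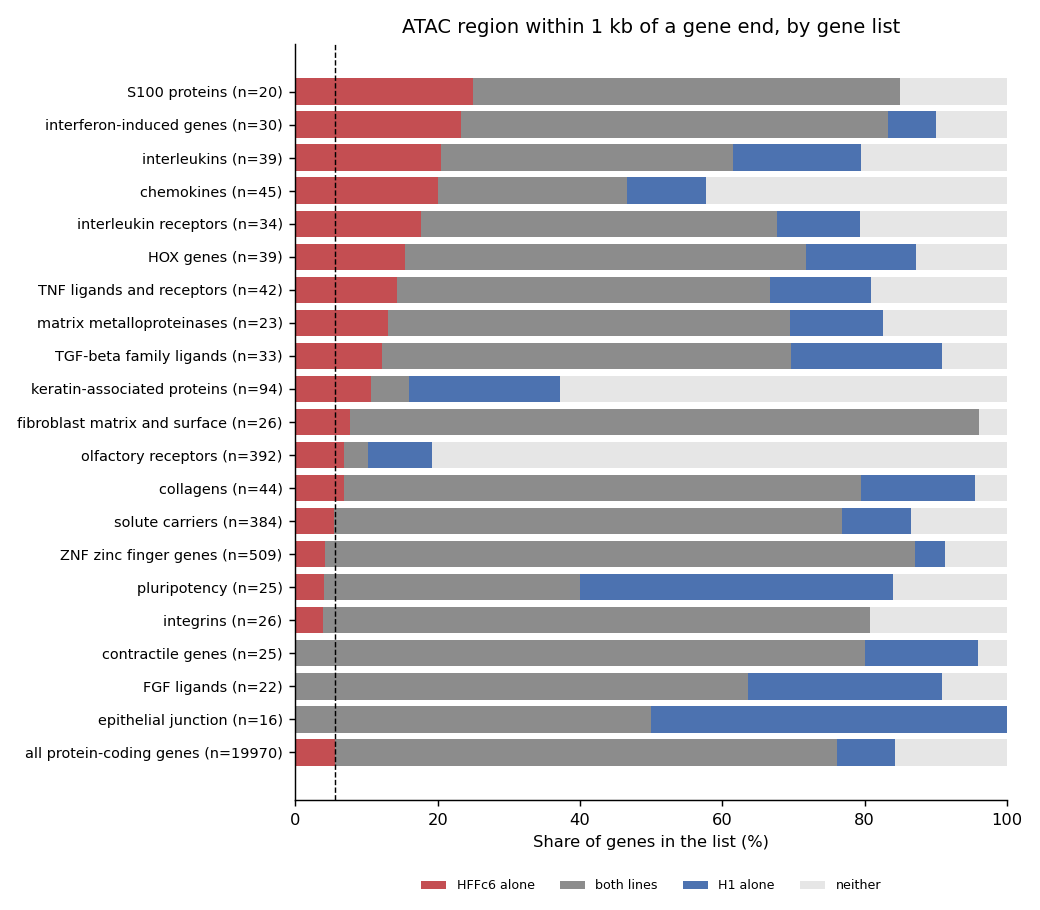
Share of genes (%) in each of 20 lists, and among all protein-coding genes, with an ATAC region within 1 kb of an end in HFFc6 alone (red), both lines (dark grey), H1 alone (blue) or neither (light grey). The dashed line is the 5.55% of all genes; S100 proteins reach 25% and FGF ligands 0%.

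Runs of at least 3 neighbouring genes, all open in HFFc6 alone, were found at 15 places. Besides the CCL7 group, they held KRTAP2-2, KRTAP2-3, KRTAP2-4 and KRTAP4-7 on chromosome 17 (41054498 to 41085144), with 4 HFFc6-only regions. The cytochrome genes CYP4F22, CYP4F8, CYP4F3 and CYP4F12, fatty acid hydroxylases, formed another on chromosome 19 (15508525 to 15697174), also with 4. CIDEB, LTB4R2, LTB4R and ADCY4 on chromosome 14 (24305187 to 24335071) had 2, and include both leukotriene B4 receptors. In such runs a region can serve the ends of more than 1 gene: over all genes 265 of the 3342 regions lay at an end of 2 or more. The run of SPESP1, SPESP1-NOX5 and NOX5 held 2 HFFc6-only regions, and that of WFDC6, EPPIN-WFDC6 and EPPIN held 1. Each reached 3 genes only through a joint entry that overlaps its 2 neighbours. No expected number of runs was computed.

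Several genes had HFFc6-only regions at separate ends. C3AR1 had 14.6 at its start and 11.7 at its far end, with H1 regions 14890 and 11305 bp away. MYCT1 had 13.2 and 12.2, the first with its summit 1187 bp ahead of the outer start and the other 816 bp inside the gene. KRTAP2-3 is short enough for a region of 1307 bp (4.92) to lie in both windows.

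Of the 191 genes named by rule, some left the class when the limits changed. With H1 regions extended by 500 bp 41 became open in both lines. Among those described above these were COL6A3, PLAUR, S100A6, S100A5, S100A14, GBP1, IFIT2, MX2, IL10, HOXA6, HOXA11, GDF7, LEFTY2, POLR2J2, LTB4R, ADCY4, KLHL12, ZBTB9, SLC28A2 and GOLGA6B. With −log10 q of at least 10 in both lists 21 had no region at an end in either line, POSTN, COL20A1, MMP9, CCL8, HOXA6, LEFTY2, CYP4F22 and CYP4F3 among them. With 500 bp windows 51 had none. These held ACMSD, TAS2R14, KLHL12, ZBTB9, SLC28A2, GOLGA6B and GOLGA8Q, the cytokine and receptor genes FAS, IL24, IL10 and INHBB, and the blood markers PTPRC and GATA1. They also held S100A5, S100A14, MMP9, COL20A1, HOXD12, KRTAP2-2, CYP4F22 and CYP4F8. With 2 kb windows 59 became open in both lines, among them COL6A3, PLAU, PLAUR, S100A6, GBP1, IFIT2, MX2, IL10, HOXA11, HOXD12, HPX and EMCN.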

How the data were processed

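The deposited lists were made by the authors with BWA, MACS2 and bedtools on hg38, per the submitters' processing notes. Tool versions, filters, any Tn5 offset and the handling of duplicates and multi-mapping reads are not given in the sources used. Each list holds the authors' fold enrichment, a ratio of signal over background, their −log10 q-value, and the summit's offset; every list stopped at a q of 0.05. Libraries were pooled in 1 list per group, so nothing was tested.

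From these, regions were compared by overlap of at least 1 bp. Genes and their ends came from RefSeq (GRCh38.p14), and its promoter table gave the strand of 15811 of 19970 genes. In counts of gene ends and in summit distances the start is the outermost end on the 5′ side of the gene. That end was the tabulated start in 13256 genes. Sequence windows used the tabulated start. Exons and introns were not analysed here. Letters of 15 motifs were searched on both strands. The members, the 40 gene lists and the markers were chosen with earlier results of these data known. Named genes were those open in HFFc6 alone that had the 25 highest fold enrichments, the 10 largest numbers of regions, the 10 strongest pairs of ends, up to 6 per list, membership of a run, or the 5 strongest CTCF regions. Counting code was tested on simulated intervals. Used were Python 3.11.15, numpy 2.4.6, pandas 2.3.3 and scipy 1.17.1. The SMC1, H3K4me3 and H3K27ac data were not used here.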

Additional observations from a re-analysis of the deposited data

How the results depend on the processing

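Replicates were pooled before deposit, so calling noise could not be measured, and depth is unknown. No paired analysis was possible because the lists hold no values per library. The number of HFFc6-only regions at gene ends, 3342, moved to 2192 with 500 bp windows and 5840 with 2 kb windows, by construction. Genes open in HFFc6 alone numbered 1693 at a −log10 q of at least 10, 801 counting starts alone, and 821 to 1269 under the other alternatives. The stricter q kept 85.2% of HFFc6 regions but only 48.4% of H1 regions. All values at that setting therefore rest on a more strongly reduced H1 list. HFFc6 CTCF overlap moved from 39.7% to 42.2% with 500 bp windows, 53.4% at the stricter q and 43.1% with 500 bp around each summit. In the strongest of 5 groups by fold enrichment, an alternative added after seeing the data, it was 80.8%. The share at starts, 36.8%, became 39.1% with 2 kb windows, 44.8% at the stricter q, 44.1% around summits and 34.3% with H1 regions extended by 500 bp. AP-1 letters were in 67 of 843 start windows of genes open in HFFc6 alone (7.95%), in 6.90 to 8.27% under the 7 other settings of windows, q, overlap and H1 margin, and in 13.9% of windows under an HFFc6-only region, which was also added after seeing the data. ACSL5 and GOLGA6B became open in H1 alone with 500 bp around the summit. Beyond the windows, the cause was not tested. Of 191 named genes, 170 were still open in HFFc6 alone at the stricter q, 164 around summits, 150 with H1 extended, 140 with 500 bp windows and 132 with 2 kb windows. At equal numbers of peaks and at 50% overlap all 191 stayed, by construction. Equal numbers removed H1 regions only, and the 50% rule does not enter the class of a gene.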
